A study of Mus musculus with 6 samples.

Results

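AP-1 and immediate early genes are described here in mouse liver, across 2 treatment groups. The 10 members, Jun, Junb, Jund, Fos, Fosl2, Atf3, Egr1, Ier2, Ier3 and Myc, were chosen by gene symbol, out of 18253 symbols listed in at least 1 library. All 10 were listed in each of the 6 libraries. The livers came from C57BL/6 mice labelled as postnatal day 21. All had received ANIT (alpha-naphthylisothiocyanate), which damages the bile duct lining and blocks bile flow, and the label gives 5 days of treatment. In 3 libraries (replicates 1, 2 and 3) the mice had received ANIT alone. The other 3, called the celastrol libraries, came from mice given ANIT together with the plant triterpenoid celastrol. No untreated liver was analysed here, so a lower value with celastrol is lower than in ANIT liver and says nothing of the level in normal liver. The labels do not say whether each library is a separate animal, and p-values measure the spread between these libraries, which may be technical.

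Immediate early genes are transcribed within minutes of a stimulus, from factors already present in the cell, and their mRNAs are short-lived. AP-1 is a dimer of basic leucine zipper (bZIP) proteins. JUN proteins pair with themselves, with FOS proteins or with ATF proteins, and MAP kinases control both their transcription and their activity. In liver, these genes are known to respond to injury, bile acids, growth factors and partial hepatectomy.

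Levels are in FPKM (fragments mapped, per kilobase of the gene, after library scaling). Comparing levels between genes relies on the gene lengths and strand setting used, which are not given. Read totals are not in these tables. The spacing of the lowest values was best matched by 18940000 to 19840000 reads per library, a rough estimate from which approximate read numbers are given below for the lowest members. The check of the tissue label found 9 of 10 hepatocyte markers listed, none at 0. Their summed level was 52554 to 64512 FPKM with ANIT and 32126 to 37374 FPKM with celastrol. Of the 9, albumin (Alb) fell from 32513 ± 5321 to 6985 ± 2658 FPKM (SD, n = 3 each; limma adjusted p = 0.0024), Fgb, a fibrinogen chain, rose from 4498 ± 969.9 to 10840 ± 3389 FPKM (limma adjusted p = 0.021), and 7 were not called. Without Alb the summed levels overlapped, at 23022 to 28243 FPKM with ANIT and 24225 to 31810 FPKM with celastrol. The summed neutrophil markers were 35.1 to 60.4 FPKM with ANIT and 73.7 to 102.2 FPKM with celastrol, with 12 of 12 listed and 1 below 1 FPKM in every library. Sums of Kupffer cell (184.9 to 424.2 against 328.1 to 457.9 FPKM), endothelial (36.2 to 59.0 against 50.7 to 93.8 FPKM), stellate cell (22.2 to 40.7 against 17.9 to 59.8 FPKM) and cholangiocyte markers (45.3 to 53.6 against 22.0 to 51.0 FPKM) overlapped between the groups. Lymphocyte markers summed to at most 3.54 FPKM in any library. Medians over the tested markers of the log2(FPKM + 1) difference, celastrol minus ANIT, were 0.57 for Kupffer cell and 0.62 for endothelial markers. They were 0.48 for neutrophil, 0.035 for stellate cell and -0.35 for cholangiocyte markers. Called higher were the neutrophil genes S100a8, S100a9, Ly6g and Ngp and the endothelial gene Stab2, and Krt19 of the cholangiocyte list was lower. Among others, Alb, Fgb, the neutrophil sum and the named low cholangiocyte markers moved with the groups. The part of Alb and of all these markers in the results that follow was not tested. The 10 most abundant genes took 20.3% to 21.9% of the summed FPKM in the ANIT libraries and 33.2%, 20.7% and 31.5% in celastrol replicates 1, 2 and 3. In bulk liver, fewer cells of a type and less RNA per cell cannot be told apart.

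Of the 10 members, 7 fell in the celastrol group and none rose, by limma on log2(FPKM + 1) with Benjamini-Hochberg adjustment over all 10593 genes tested and a threshold of 0.05. Over all genes tested 25.0% were called, 20.6% lower and 4.41% higher. No member reached an unadjusted p under 0.05 in the higher direction. The 7 were Jun, Jund, Atf3, Egr1, Ier2, Ier3 and Myc, and in each of them all celastrol libraries lay below all ANIT libraries, as did 36.6% of all genes tested, while 8.35% lay above. Junb, Fos and Fosl2 were not called, and their groups overlapped. Below, a log2 difference is the mean of log2(FPKM + 1) with celastrol minus that with ANIT. Its median was -1.14 over the members and -0.17 over all genes tested. All members passed the filter of at least 1 FPKM in at least 3 libraries, Atf3 only through its ANIT libraries. The count of 2185 lower genes over the whole table became 1287 or 1010 on leaving out ANIT replicate 1 or 2, and 909, 3326 or 1303 on leaving out celastrol replicate 1, 2 or 3. Under median-ratio scaling, which moved the median of all genes to -0.02, 1170 genes were lower and 795 higher, and after quantile normalization 965 and 864. The same 7 members were called lower under both.

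**Figure D1:**
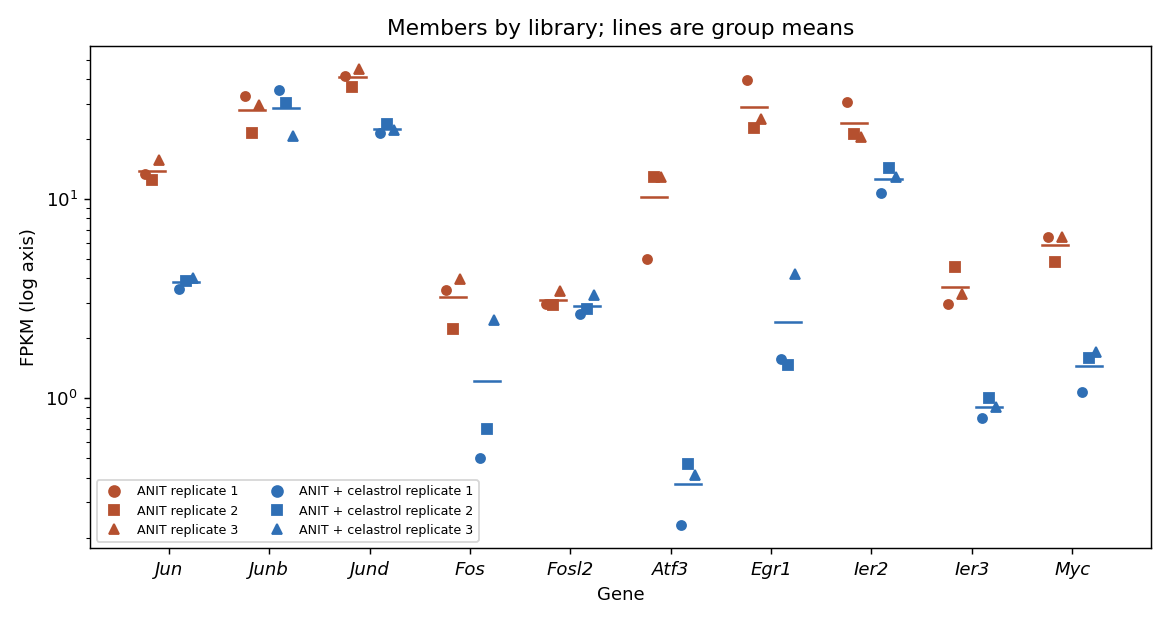
FPKM of the 10 members in each library on a log axis, with ANIT in red and ANIT plus celastrol in blue. Marker shapes stand for replicates and lines for group means; the groups are apart for 7 genes and overlap for Junb, Fos and Fosl2.

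**Figure D2:**
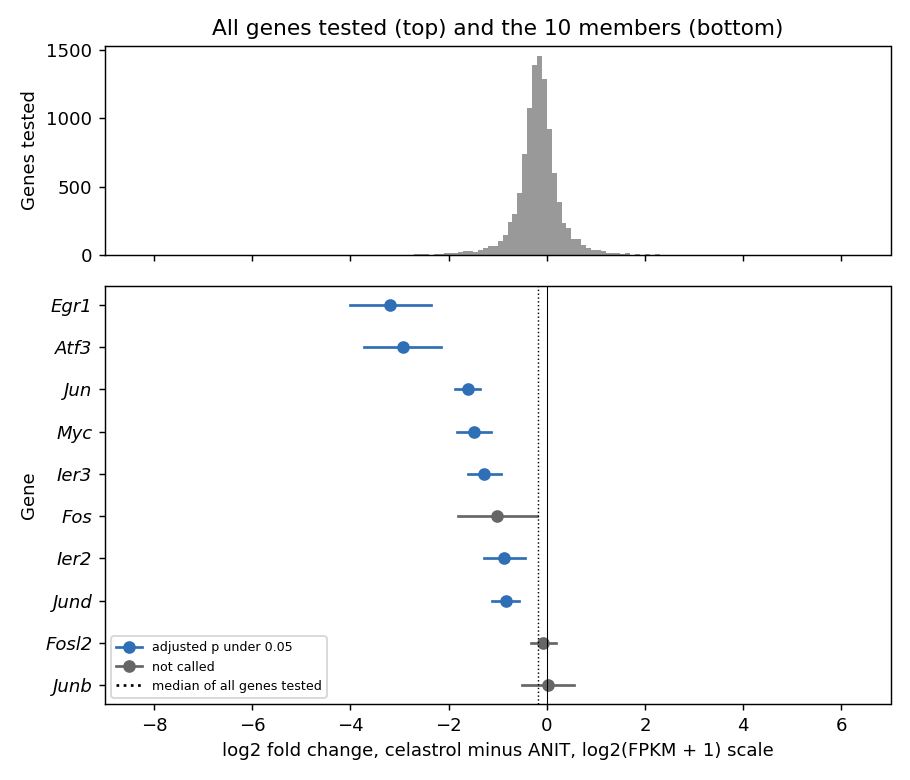
Log2 fold changes on the log2(FPKM + 1) scale for all 10593 genes tested (top, number of genes per bin) and for the members with their limma 95% intervals (bottom). The dotted line is the median of all genes, -0.17; Egr1 and Atf3 lie farthest to the left.

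The bases upstream of 4 members are shown because Jun and Junb, and Fos and Atf3, are related pairs of which one gene was called (Jun, Atf3) and the other was not. RefSeq (GRCm38.p6) windows of 250 bases before the RefSeq start were found for 7 of the 10 members, and not for Egr1, Ier2 and Myc. RefSeq and GENCODE starts differ for some. The Fosl2 window lies inside the GENCODE gene, and an annotated exon of the gene covers its first base. The Jund window ends at a RefSeq start 1210 bases upstream of the GENCODE start. The windows are Jun at chr4:95052223-95052472 (minus strand), Junb at chr8:84978749-84978998 (minus), Fos at chr12:85473640-85473889 (plus) and Atf3 at chr1:191183341-191183583 (minus). The Atf3 window lies within the GENCODE gene, before a RefSeq start 34706 bases downstream of the outermost GENCODE start. It leaves off its last 7 bases, where an annotated exon begins. The windows read 5′ to 3′ on the gene's strand, with matches to the searched motifs other than the TATA box in capitals.
Jun: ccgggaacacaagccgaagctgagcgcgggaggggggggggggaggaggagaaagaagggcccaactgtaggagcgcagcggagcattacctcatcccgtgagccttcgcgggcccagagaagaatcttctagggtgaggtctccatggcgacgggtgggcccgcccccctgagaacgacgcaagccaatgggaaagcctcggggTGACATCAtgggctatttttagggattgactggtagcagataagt
Junb: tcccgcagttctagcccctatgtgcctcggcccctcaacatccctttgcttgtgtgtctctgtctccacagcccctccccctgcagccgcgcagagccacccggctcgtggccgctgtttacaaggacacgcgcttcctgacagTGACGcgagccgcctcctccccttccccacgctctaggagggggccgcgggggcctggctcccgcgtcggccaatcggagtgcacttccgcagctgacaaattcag
Fos: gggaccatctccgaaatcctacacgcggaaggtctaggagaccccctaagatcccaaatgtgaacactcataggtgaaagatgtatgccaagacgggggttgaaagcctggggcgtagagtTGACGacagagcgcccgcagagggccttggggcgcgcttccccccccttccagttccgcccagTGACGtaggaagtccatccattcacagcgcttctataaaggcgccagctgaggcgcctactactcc
Atf3: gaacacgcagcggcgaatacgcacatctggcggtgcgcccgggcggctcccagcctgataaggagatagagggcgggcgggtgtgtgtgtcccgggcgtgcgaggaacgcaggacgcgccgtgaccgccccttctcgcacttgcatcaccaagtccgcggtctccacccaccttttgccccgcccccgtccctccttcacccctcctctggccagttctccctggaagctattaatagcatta
The search covered both strands for the AP-1 site TGANTCA, the CRE-like site TGACNTCA, the CRE core TGACG (which lies inside a full CRE), the E-box CACGTG, the EGR site GCGTGGGCG, the TATA box TATAAA and the CArG box by name. Jun has TGACATCA, starting 45 bases before its start, a CRE-like match found in 7.49% of the 32851 promoter windows of this length. TGACG, found in 17.8% of windows, starts 129 and 66 bases before the start of Fos and 106 bases before that of Junb. In Atf3 it lies on the other strand, 7 bases before the start, in the part not printed. Fos also has TATAAA, starting 33 bases before its start and found in 12.4% of windows. The AP-1 site, the E-box, the EGR site and the CArG box (6.75%, 6.02%, 0.536% and 1.47% of windows) had no match in any of the 7 windows. That absence covers only these 250 bases and the exact letters searched, and does not show that a gene lacks such a site. No motif matched in the Ier3 window, in the Fosl2 window, which begins in an annotated exon, or in the Jund window, which is away from the GENCODE start. This says only that the letters are not in those windows. A match is a run of letters, not a site shown to be bound.

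The JUN genes encode the partners present in most AP-1 dimers. Jun and Jund fell, and Junb did not pass. Jun, the founding member (chromosome 4, 95049034 to 95052222 in mm10, GENCODE release M21), measured 13.3, 12.5 and 15.6 FPKM in ANIT replicates 1, 2 and 3 and 3.55, 3.89 and 4.03 FPKM in the celastrol libraries. Each ANIT library lay far above the highest celastrol library. Its log2 difference was -1.62 (SE 0.11, limma adjusted p = 0.00024), from 13.8 ± 1.63 to 3.82 ± 0.247 FPKM (SD, n = 3 each). Jund, the JUN protein most often linked with quiescent cells (chromosome 8, 70698949 to 70700616), measured 41.2, 36.4 and 45.0 FPKM with ANIT, against 21.5, 23.7 and 22.1 with celastrol. The groups were apart, with a log2 difference of -0.83 (SE 0.12, limma adjusted p = 0.0036). Junb (chromosome 8, 84974484 to 84978718) measured 33.0, 21.4 and 29.6 FPKM with ANIT, against 35.1, 30.3 and 20.8 with celastrol. Both its highest and its lowest value were celastrol libraries, and its log2 difference was 0.03 (95% interval -0.50 to 0.56, limma adjusted p = 0.94). In GENCODE Jun shares 689 bases with the antisense gene Junos, Jund 919 bases with the antisense Gm11175, and Junb 351 bases with the end of Prdx2, which was listed at 45.2 to 64.6 FPKM. Whether the counting used strand is not stated, and reads in those stretches cannot be assigned.

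Ratios within a library do not depend on how libraries were scaled. Of the summed FPKM of Jun, Junb and Jund, Jun made up 15.2%, 17.8% and 17.3% with ANIT and 5.90%, 6.73% and 8.59% with celastrol. Junb made up 37.7%, 30.5% and 32.8% with ANIT and 58.4%, 52.3% and 44.3% with celastrol. For both genes the groups did not overlap (exact permutation p = 0.1, two-sided, the smallest that 3 against 3 libraries allow, adjusted p = 0.14 over 7 shares). The share of Jund was 49.6 ± 2.37% with ANIT and 41.3 ± 5.70% with celastrol (SD, n = 3 each, exact permutation p = 0.2), and celastrol replicate 3, at 47.1%, reached the ANIT range. The family's summed level was 70.3 to 90.2 FPKM with ANIT and 46.9 to 60.2 FPKM with celastrol. Jund therefore had the highest FPKM of the JUN genes in each ANIT library, and Junb in celastrol replicates 1 and 2.

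**Figure D3:**
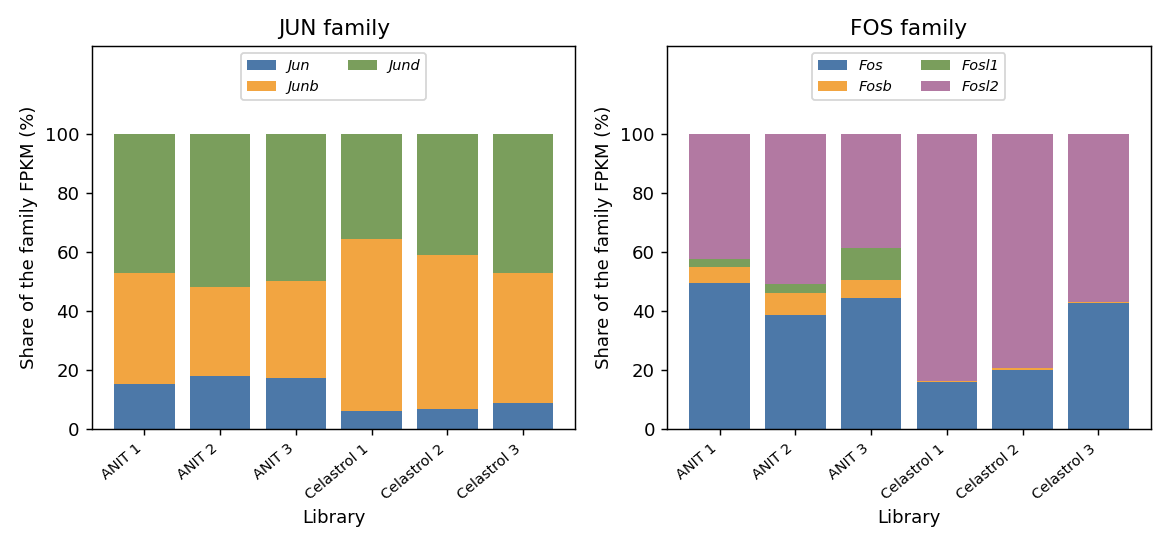
Share of each gene in the summed FPKM of the JUN family (left) and the FOS family (right), 1 bar per library. With celastrol the Jun share is smaller and the Junb share larger in each of the 3 libraries, and Fosl2 makes up 57.1% to 83.9% of the FOS family.

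FOS proteins bind DNA as partners of JUN and of some other bZIP proteins. Fos (chromosome 12, 85473890 to 85477273) measured 3.48, 2.23 and 3.98 FPKM with ANIT, against 0.50, 0.70 and 2.47 with celastrol. Celastrol replicate 3 lay above ANIT replicate 2, while the other celastrol libraries were the lowest, at approximately 23.2 and 31.9 reads. Its log2 difference of -1.01 (SE 0.34) did not pass (limma adjusted p = 0.072), and without celastrol replicate 3 it was -1.38 and passed (limma adjusted p = 0.0068). Fosl2, which encodes FRA-2 (chromosome 5, 32135801 to 32157842), measured 2.96, 2.92 and 3.45 FPKM with ANIT, against 2.66, 2.79 and 3.30 with celastrol. All of its values lay within a narrow range, with a log2 difference of -0.07 (95% interval -0.32 to 0.18, limma adjusted p = 0.66). The remaining FOS genes were below the filter. Fosb measured 0.37, 0.42 and 0.54 FPKM with ANIT, against 0.01, 0.03 and 0.01 with celastrol, and passed in the fit without the filter (limma adjusted p = 0.0049). Fosl1 measured 0.20, 0.18 and 0.98 FPKM with ANIT and was listed in none of the celastrol libraries (limma adjusted p = 0.17 without the filter). Fosl2 made up 42.2%, 50.8% and 38.5% of the summed FOS family FPKM with ANIT and 83.9%, 79.3% and 57.1% with celastrol (exact permutation p = 0.1, adjusted p = 0.14). The difference in mean share was 29.6 percentage points, and the groups did not overlap.

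Atf3, a stress-induced bZIP factor that represses many promoters on its own and can pair with JUN proteins (chromosome 1, 191170296 to 191218039), measured 5, 12.8 and 12.9 FPKM with ANIT, against 0.23, 0.47 and 0.41 with celastrol. ANIT replicate 1 was lower than the other ANIT libraries and still above each celastrol library. The celastrol values correspond to approximately 9.77, 19.6 and 17.5 reads. The mean was 27.6 times higher with ANIT, with a log2 difference of -2.94 (SE 0.33, limma adjusted p = 0.0024), which understates a change to below 1 FPKM. With a pseudocount of 0.1 the log2 difference was -4.37.

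Egr1, a zinc finger factor induced through serum response elements by ERK signalling, had the most negative log2 difference among the members. It measured 39.5, 22.7 and 25.1 FPKM with ANIT, against 1.58, 1.46 and 4.22 with celastrol. Celastrol replicate 3 was the highest of its group, as it was for Fos, and still far below the ANIT libraries. The mean was 12.0 times higher with ANIT, with a log2 difference of -3.19 (SE 0.34, limma adjusted p = 0.0023). It was 19th from the lowest of the 10593 genes tested. Myc, a growth-promoting factor whose mRNA and protein turn over fast (chromosome 15, 61985391 to 61990374), measured 6.41, 4.81 and 6.44 FPKM with ANIT, against 1.07, 1.6 and 1.70 with celastrol. Its groups were well apart, at 5.89 ± 0.933 and 1.46 ± 0.339 FPKM (SD, n = 3 each), and differed by -1.49 on the log2 scale (SE 0.15, limma adjusted p = 0.0011).

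Ier2 and Ier3 are small immediate early genes. Ier3, also called IEX-1, is known as a regulator of cell survival and an NF-kB target. Ier3 (chromosome 17, 35821684 to 35822923) measured 2.98, 4.57 and 3.35 FPKM with ANIT, against 0.80, 1 and 0.90 with celastrol, the latter approximately 17.8, 21.9 and 20.1 reads. The celastrol values lay close together, with a log2 difference of -1.27 (SE 0.14, limma adjusted p = 0.0016). Ier2 (chromosome 8, 84661331 to 84662852) measured 30.7, 21.2 and 20.4 FPKM with ANIT, against 10.8, 14.3 and 12.9 with celastrol. The highest celastrol library was below the lowest ANIT library, and its log2 difference was -0.86 (SE 0.18, limma adjusted p = 0.013). On leaving out celastrol replicate 1 Ier2 no longer passed (limma adjusted p = 0.056).

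The order of levels differed between the groups. With ANIT the order by mean FPKM was Jund, Egr1, Junb, Ier2, Jun, Atf3, Myc, Ier3, Fos and Fosl2. Neighbours in that order overlapped between libraries, except that Ier2 lay above Jun and Myc above Ier3 in all libraries. With celastrol it was Junb, Jund, Ier2, Jun, Fosl2, Egr1, Myc, Fos, Ier3 and Atf3. There Jund lay above Ier2, Ier2 above Jun, Jun above Fosl2 and Ier3 above Atf3 without overlap, and the other neighbours overlapped. Atf3 went from the sixth to the lowest place and Fosl2 from the lowest to the fifth.

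Within the celastrol group, replicate 3 held the highest value for 5 members (Jun, Fos, Fosl2, Egr1 and Myc) and the lowest for 1 (Junb). Over all genes tested it held the highest value for 17.6% and the lowest for 47.5%. Celastrol replicate 1 held the lowest value for 8 of the 10 members, against 33.0% of all genes. Among the ANIT libraries, replicate 3 was highest for 6 members (23.7% of all genes), and replicate 2 was lowest for 7 (20.1% of all genes). These counts are a description, with no test.

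The rest of the AP-1 machinery was described with a list of 13 other bZIP genes, of which 9 were tested. Of these 3 fell, the small MAF genes Maff, Mafg and Mafk, and 1 rose, Batf3, with a list median of -0.24. Over all genes tested 20.6% were called lower and 4.41% higher, the shares to read beside this and the later list counts. Small MAF proteins lack a transactivation domain and pair with CNC factors such as NRF2 as well as with FOS proteins. Maff measured 4.41, 7.84 and 9.95 FPKM with ANIT, against 0.50, 1.59 and 0.81 with celastrol, with a log2 difference of -2.07 (SE 0.30, limma adjusted p = 0.0057). Mafg, with the highest FPKM of the small MAF genes, fell from 50.1 ± 6.84 to 20.4 ± 3.79 FPKM (SD, n = 3 each) and passed (log2 difference -1.26, SE 0.16, limma adjusted p = 0.0024). Mafk had a smaller log2 difference of -0.53 (limma adjusted p = 0.017). Batf3, a factor of dendritic cell development, went from 0.84, 0.75 and 0.94 FPKM to 2.27, 1.56 and 1.69 FPKM (log2 difference 0.62, limma adjusted p = 0.014). Batf3 was below 1 FPKM in every ANIT library, so it passed the filter only through the group in which it is high, and it no longer passed the test on leaving out ANIT replicate 2 or celastrol replicate 1.

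Among 42 other immediate early genes, 34 were tested, 10 fell and 3 rose. Their median of -0.20 lay near the -0.17 of all genes tested. Klf6, a zinc finger factor, measured 6.95, 8.30 and 9.50 FPKM with ANIT, against 1.52, 1.98 and 1.46 with celastrol, with a log2 difference of -1.80 (SE 0.13, limma adjusted p = 0.00037). Cyr61, a secreted matrix protein and YAP target, measured 3.28, 3.16 and 3.64 FPKM with ANIT, against 0.60, 1.06 and 0.62 with celastrol (log2 difference -1.32, SE 0.13, limma adjusted p = 0.0011). Both genes had no overlap between the groups. The 8 others that fell were Zfp36, Btg1, Btg2, Gadd45b, Plk2, Rhob, Sik1 and Nfkbiz, and they are named after their values were seen. The 3 that rose, named in the same way, were Nfil3 (log2 difference 1.5, limma adjusted p = 0.0024), Pim1 (0.88, adjusted p = 0.015) and Pim3 (0.47, adjusted p = 0.024). Nfil3 is a bZIP repressor, and the Pim genes encode kinases known as targets of STAT signalling. The count of 10 became 6 without ANIT replicate 2 and 6 after quantile normalization. The count of 3 became 1 without ANIT replicate 2 or celastrol replicate 1, and 5 without celastrol replicate 2.

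**Figure D4:**
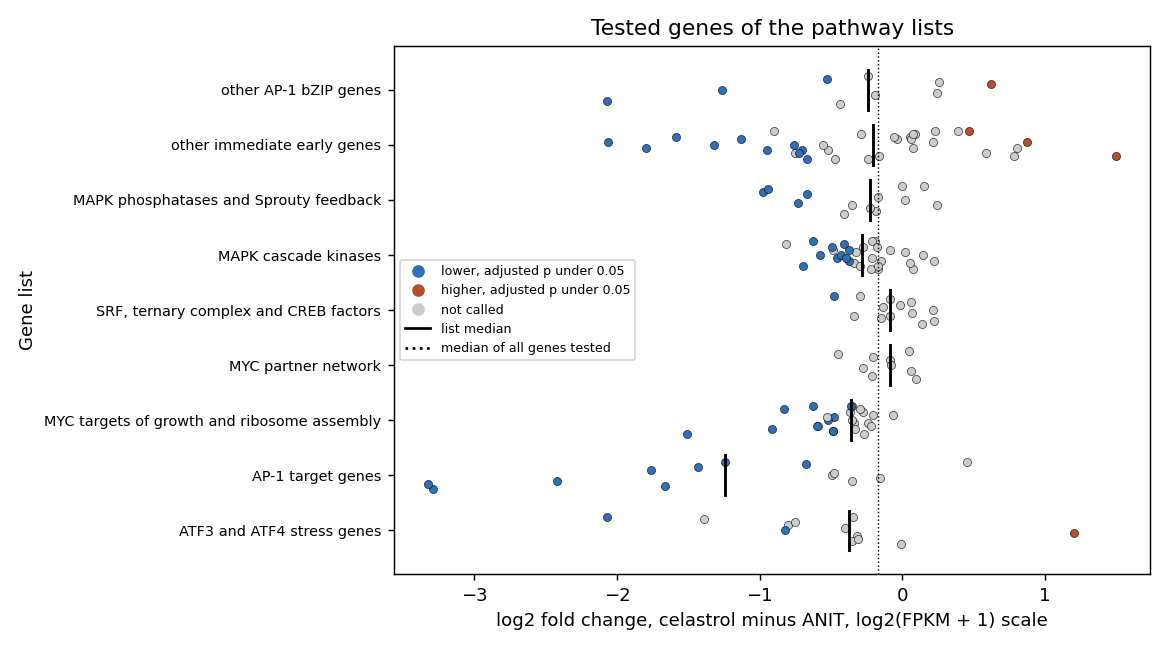
Log2 fold changes on the log2(FPKM + 1) scale of the tested genes of 9 lists, 1 point per gene, blue where lower and red where higher at an adjusted p under 0.05. Thick bars are list medians and the dotted line is the median of all genes tested; the median of the AP-1 target list is -1.24, and -0.49 without the filter on low values.

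MAP kinases connect stimuli to these genes, and dual-specificity phosphatases (DUSP) switch the kinases off. Of 13 tested phosphatase and Sprouty genes 4 fell and none rose (1 was higher at an unadjusted p under 0.05), with a median of -0.23. Dusp8, which acts on JNK and p38, measured 1.25, 1.42 and 2 FPKM with ANIT, against 0.20, 0.35 and 0.43 with celastrol (log2 difference -0.94, limma adjusted p = 0.0055). Dusp4, an inducible nuclear phosphatase, had a log2 difference of -0.97 (limma adjusted p = 0.0059), Dusp3 of -0.73 (adjusted p = 0.0065) and Dusp16 of -0.67 (adjusted p = 0.0067). Dusp4 and Dusp8, 2 of the 4, were below 1 FPKM in every celastrol library and passed the filter only through the ANIT libraries, where they are high. Of 30 tested cascade kinases 10 fell and none rose (0 higher at an unadjusted p under 0.05), with a median of -0.29. Map2k3, an activator of p38, fell from 37.0 ± 3.53 to 22.6 ± 3.79 FPKM (SD, n = 3 each) and passed (log2 difference -0.70, limma adjusted p = 0.014). Rps6ka3, the ERK-activated kinase RSK2, had one of -0.58 (limma adjusted p = 0.013). The kinase count was 4 under median-ratio scaling and 2 after quantile normalization. Leaving out ANIT replicate 1, 2 or 3 gave 3, 2 or 3, and leaving out celastrol replicate 1, 2 or 3 gave 0, 16 or 3.

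The list of SRF, ternary complex and CREB factors includes regulators of Fos and Egr1 transcription. Of its 13 tested genes 1 fell and none rose (0 higher at an unadjusted p under 0.05), with a median of -0.09. It was Mkl2, a coactivator of SRF, with a log2 difference of -0.48 (limma adjusted p = 0.017), which no longer passed on leaving out ANIT replicate 1, ANIT replicate 2 or celastrol replicate 1, under median-ratio scaling or after quantile normalization. Srf itself measured 5.26, 4.60 and 4.24 FPKM with ANIT, against 3, 3.62 and 3.94 with celastrol and did not pass (log2 difference -0.34, limma adjusted p = 0.073).

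The MYC partner network includes MAX, the obligate dimer partner of MYC. None of its 9 tested genes passed in either direction by limma. At an unadjusted p under 0.05 there were 2, both lower, and the list median was -0.09. They were Mycl (log2 difference -0.45, limma adjusted p = 0.067) and Mnt (-0.28, adjusted p = 0.11). Of 24 tested MYC targets of growth and ribosome assembly 10 fell and none rose (0 higher at an unadjusted p under 0.05), with a median of -0.36. Odc1, the rate-limiting enzyme of polyamine synthesis, measured 76.0, 55.6 and 76.4 FPKM with ANIT, against 22.9, 23.8 and 23.7 with celastrol (log2 difference -1.51, SE 0.15, limma adjusted p = 0.0010). Nme1, a nucleoside diphosphate kinase, fell from 66.3 ± 4.66 to 37.2 ± 5.49 FPKM (SD, n = 3 each) and passed (log2 difference -0.83, limma adjusted p = 0.0071). The count of 10 was 4 under median-ratio scaling and 4 after quantile normalization. It was 5 without ANIT replicate 1, and 4 and 17 without celastrol replicates 1 and 2.

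Of 13 tested genes known as AP-1 targets, 8 were lower and none higher (1 at an unadjusted p under 0.05), with a median of -1.24. Of the 8, Hbegf, Timp1 and Plaur were below 1 FPKM in every celastrol library and passed the filter only through the ANIT libraries, where they are high. Without the filter the median over the 20 listed genes was -0.49, with 8 lower. Ccnd1, which encodes cyclin D1, measured 37.1, 20.03 and 26.9 FPKM with ANIT, against 1.75, 1.98 and 1.93 with celastrol. The celastrol values were close together and far below the ANIT range, with a log2 difference of -3.29 (SE 0.20, limma adjusted p = 0.00022). Hmox1, heme oxygenase 1, which NRF2 also controls, measured 45.2, 71.6 and 54.7 FPKM with ANIT, against 16.3, 17.5 and 17.4 with celastrol (log2 difference -1.66, SE 0.17, limma adjusted p = 0.0012). Others that fell, named after their values were seen, were Anxa2, Ccl2, Hbegf, Timp1 and Plaur. The count was 7 under median-ratio scaling and 7 after quantile normalization.

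Atf3 is also a target of ATF4 in the integrated stress response. Of 12 tested genes of that list 2 fell and 1 rose, with a median of -0.38. Those counts are near the shares over all genes tested, 20.6% lower and 4.41% higher. Trib3, a pseudokinase, measured 8.84, 19.5 and 13.3 FPKM with ANIT, against 2.09, 2.90 and 2.27 with celastrol (log2 difference -2.07, SE 0.26, limma adjusted p = 0.0030). Herpud1, of endoplasmic reticulum protein degradation, had a log2 difference of -0.83 (limma adjusted p = 0.024). Chac1, a glutathione-degrading enzyme, went the other way, from 1.73, 2.39 and 1.93 FPKM to 5.22, 6.44 and 6.10 FPKM (log2 difference 1.20, SE 0.12, limma adjusted p = 0.0011). The count of 2 was 5 without ANIT replicate 1, 1 without ANIT replicate 2 and 1 without celastrol replicate 1.

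The genes outside all lists whose pattern over the 6 libraries was most like the members' were sought by distance. Unnamed gene models and symbols that had turned into dates were left out. Each gene's log2(FPKM + 1) was centred on its mean and compared with the median centred profile of the members by root mean square distance. The closest were Hsd17b13, a lipid droplet protein of hepatocytes (distance 0.07 log2 units), Abcc3, a basolateral exporter of conjugates (0.08), Scd2, a fatty acid desaturase (0.11), Gsr, glutathione reductase (0.11), and Bag2, a cochaperone (0.11). Abcc3, for example, measured 65.8, 58.5 and 70.7 FPKM with ANIT, against 25.1, 28.2 and 26.5 with celastrol. Of the members Myc was closest to the median profile (0.15), and Atf3 (0.98) and Egr1 (1.05), with larger differences between the groups, were farthest.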

How the data were processed

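RNA sequencing libraries of frozen liver were compared, 3 with ANIT and 3 with ANIT plus celastrol, grouped and numbered by their titles. The deposited values are FPKM per gene symbol, 1 table per library, per the file headers. HISAT2, featureCounts and mm10 are named in the submitters' processing notes, without versions, and the sources used here do not give the gene annotation, gene lengths or strand setting. Where a table lacked a symbol, its value was taken as 0, and 2 repeated symbols that had turned into dates were dropped. The test was limma 3.58.1, run in R 4.3.3 on log2(FPKM + 1) of the 10593 genes that reached 1 FPKM in 3 or more libraries (empirical Bayes with trend and robust variance, group as the only term, Benjamini-Hochberg adjusted p under 0.05). Such fold changes understate those of genes near or below 1 FPKM. Genes below the filter take p from the fit without it. On simulated data, 5 runs of this comparison with 200 changed genes and a mean of 10388 genes tested found 77.5% of the 2-fold and 94.5% of the 4-fold changes, with 4.08% false calls. The simulated noise was independent between genes and libraries, the changes were balanced in direction, and no scaling shift was added. Such rates therefore do not cover errors that come from library scaling. Depth was estimated from the spacing of FPKM values of 0.1 to 1 in genes with 1 transcript.

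The members, and the 9 pathway and 7 cell marker lists written from textbook knowledge, were chosen with earlier results of these data known. Named genes are the members, the 2 genes of smallest p in each pathway list, all called genes where a list has 5 or fewer, and the 5 genes most like the members. Others are marked in the text, and a called gene of the AP-1 target list is not reported here. Family shares were compared by exact permutation. Alternatives were another pseudocount, other filters and scalings, a replicate block, variance without the robust step, and each library left out in turn.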

Additional observations from a re-analysis of the deposited data

How the results depend on the processing

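Jun, Jund, Atf3, Egr1, Ier3 and Myc were called lower under each alternative in which they were tested, with log2 fold changes of -1.82 to -1.42, -0.97 to -0.53, -4.37 to -2.74, -3.66 to -2.95, -1.88 to -1.13 and -1.96 to -1.36. Ier2 was called under 14 of 15 alternatives and Fos under 3 of 14, which were rescaling to TPM (limma adjusted p = 0.045), the replicate block (adjusted p = 0.031) and leaving out celastrol replicate 3. The number of members called lower was between 6 and 8 when 1 library was left out, and 5 where only genes with a mean of at least 5 FPKM were tested, since 4 members were then not tested. Fosl2 turned to 0.066 under median-ratio scaling and 0.053 after quantile normalization. Junb turned to -0.10 on the TPM scale. Leaving out 1 library gave -0.15 to 0.23, and neither gene was called in any alternative.

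Over all genes the number lower was 2185, and 1170 under median-ratio scaling, 965 after quantile normalization and 3813 when rescaled to TPM, where 389 were higher. The number higher was 467, and 795 and 864 under the first 2 of these. Without 1 library the number lower was 909 to 3326 and the number higher 218 to 515. Scaling moved the median of all genes to between -0.30 (TPM) and 0.01 (quantile normalization). When rescaled to TPM, the number lower was 16 of the kinases, 20 of the MYC targets, 7 of the phosphatases, 5 of the ATF4 list, 2 of the SRF list and 2 of the MYC partners. With a mean of at least 5 FPKM required, 4 AP-1 targets and 4 genes of the ATF4 list were lower. The median of the MYC partners, of the SRF list and of the other immediate early genes changed sign under 2, 3 and 1 of 15 alternatives, and those of the other 6 lists under none.

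Replicate numbers were also fitted as a block. Same-numbered libraries deviated together with correlations of 0.15, 0.23 and -0.09, so the numbers are not taken as pairs. With the replicate block 2585 genes passed, against 2652, and 8 members were lower, Fos being the added one. The difference in family share with the block was -8.30 percentage points for Jund (exact permutation p = 0.25) and 29.6 for Fosl2 (p = 0.25), the smallest p that 3 pairs allow. Without 1 library these differences were -11.2 to -5.52 and 24.3 to 37.7 percentage points. By the rough depth estimate given above, Atf3, Fos, Fosb and Ier3 with celastrol rest on few reads.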
